A study of Caenorhabditis elegans with 2 samples.

Results

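The genes described here are 10 regulators of larval developmental timing in Caenorhabditis elegans, namely lin-14, lin-28, hbl-1, lin-41, lin-29, lin-42, daf-12, din-1, puf-9 and myrf-1. They were chosen by name as timing genes, with peak values of these same data in view, out of 19985 protein-coding genes in the annotation (46926 genes of all types). All 10 were found by symbol. Because the choice used the readout, counts at these genes are a description, shares over all protein-coding genes are given beside the main ones, and no test was made.

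Chromatin immunoprecipitation followed by sequencing (ChIP-seq), which recovers the DNA bound by a chosen protein, was carried out for an eGFP-tagged NHR-67 in 2 biological replicates. The tagged protein belongs to the nuclear receptors and is related to Drosophila tailless. Both replicates were whole L3 larvae, pooled over males and females, of strain OP373. That strain has the genotype unc-119(tm4063) III with the integrated transgene wgIs373, which carries the tagged nhr-67; the labels name no promoter for it. It was obtained from the CGC, and both replicates belong to this 1 strain. There was 1 group and no second condition. Since whole animals were used, the cells in which a region was bound cannot be told apart, and the labelled material could not be checked against expression markers in lists of regions.

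Heterochronic genes set which larval stage the dividing cells of the worm follow, so that a loss of function makes cells skip or repeat a stage. Early-stage factors such as LIN-14, LIN-28 and HBL-1 are turned down in order by microRNAs of the lin-4 and let-7 families, and LIN-29 then drives the change to the adult epidermis. The nuclear receptor DAF-12 links this sequence to steroid hormone made when conditions favour growth.

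The authors deposited 4 lists of regions on the ce11 build that are used here. The optimal list held 137 peaks that passed their reproducibility threshold, of which 108 were nuclear. These were the 137 strongest regions of a list called on both replicates pooled, which held 30000 regions. The authors labelled that list as peaks and background, the input to their reproducibility step. A region in it is therefore not by itself a called peak. Its deposited −log10 q-value was 3.14 at the din-1 optimal peak but 1.27 at the strongest lin-29 region. Regions outside the optimal list also had 3.14, such as a din-1 region at rank 871, so this value does not set optimal peaks apart. The lists of replicate 1 and replicate 2 held 30000 and 19385 regions. The signal of a region is the authors' own value for it, differs in scale between lists and is used only within a list, where rank 1 is the strongest region. Read counts were not among the values, so depth is unknown. A region was given to a gene when its summit, the position of strongest signal, lay between 5 kb upstream of the gene and the gene's end. These windows ran from 8175 to 35968 bp for the timing genes (median 17699.5 bp), against a median of 7026 bp over all protein-coding genes. Counts are therefore also given for the 5991 protein-coding genes with windows of 8175 bp or more, called long windows. Their median was 10231 bp, still below that of the timing genes. They are thus not matched in length, and longer windows can hold more regions.

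Sequences are printed for the strongest pooled region of 5 of the genes, because these are the summits on which the results turn. The printed regions of puf-9 and myrf-1 lie at annotated starts, that of din-1 lies far upstream, and those of lin-14 and daf-12 lie within the gene. Each is the plus strand of WBcel235 (ce11), 5′ to 3′, with the summit at the middle base. Capitals mark GAGAGA or its reverse complement; none of the other motifs searched, which were AAGTCA and CGCGCA and also CTGCGC, occurred in these 5 windows.
puf-9, chrX:5841211-5841311: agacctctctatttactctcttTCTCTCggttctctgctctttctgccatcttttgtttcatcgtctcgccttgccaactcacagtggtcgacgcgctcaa
myrf-1, chrII:10502875-10502975: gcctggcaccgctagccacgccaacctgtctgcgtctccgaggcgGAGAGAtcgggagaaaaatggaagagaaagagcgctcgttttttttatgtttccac
din-1, chrII:11637553-11637653: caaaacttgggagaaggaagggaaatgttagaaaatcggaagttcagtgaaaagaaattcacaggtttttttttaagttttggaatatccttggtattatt
lin-14, chrX:11482570-11482670: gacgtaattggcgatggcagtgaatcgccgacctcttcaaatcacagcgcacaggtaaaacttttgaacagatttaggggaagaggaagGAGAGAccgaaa
daf-12, chrX:10639706-10639806: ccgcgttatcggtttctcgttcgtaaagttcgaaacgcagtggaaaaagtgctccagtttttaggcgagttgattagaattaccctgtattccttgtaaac

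The windows differ in base composition, including those of lin-28 (46.5% G and C) and lin-41 (42.6%), which are not printed. The G and C content was 54.5% at myrf-1, 48.5% at puf-9, 47.5% at lin-14, 42.6% at daf-12 and 31.7% at din-1, against a median of 45.5% over the 108 nuclear optimal summits and 34.7% over the 29970 nuclear pooled summits.

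An optimal peak lay in the window of 5 of the 10 genes, which were lin-28, lin-41, din-1, puf-9 and myrf-1. The same held for 1.17% of all protein-coding genes and for 1.52% of those with long windows; since the genes were chosen with these peaks known, nothing is read from the difference. Each of the 5 genes had 1 such peak, and all 5 peaks overlapped a region in each replicate. They stood in the weaker part of the optimal list, between rank 86 for puf-9 and rank 137, the last, for din-1. The din-1 peak had a signal of 27.9, the next pooled region, just outside the list, had 27.8, and the strongest region of a timing gene left outside was that of lin-14, with a signal of 24.99 at rank 185.

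**Figure D1:**
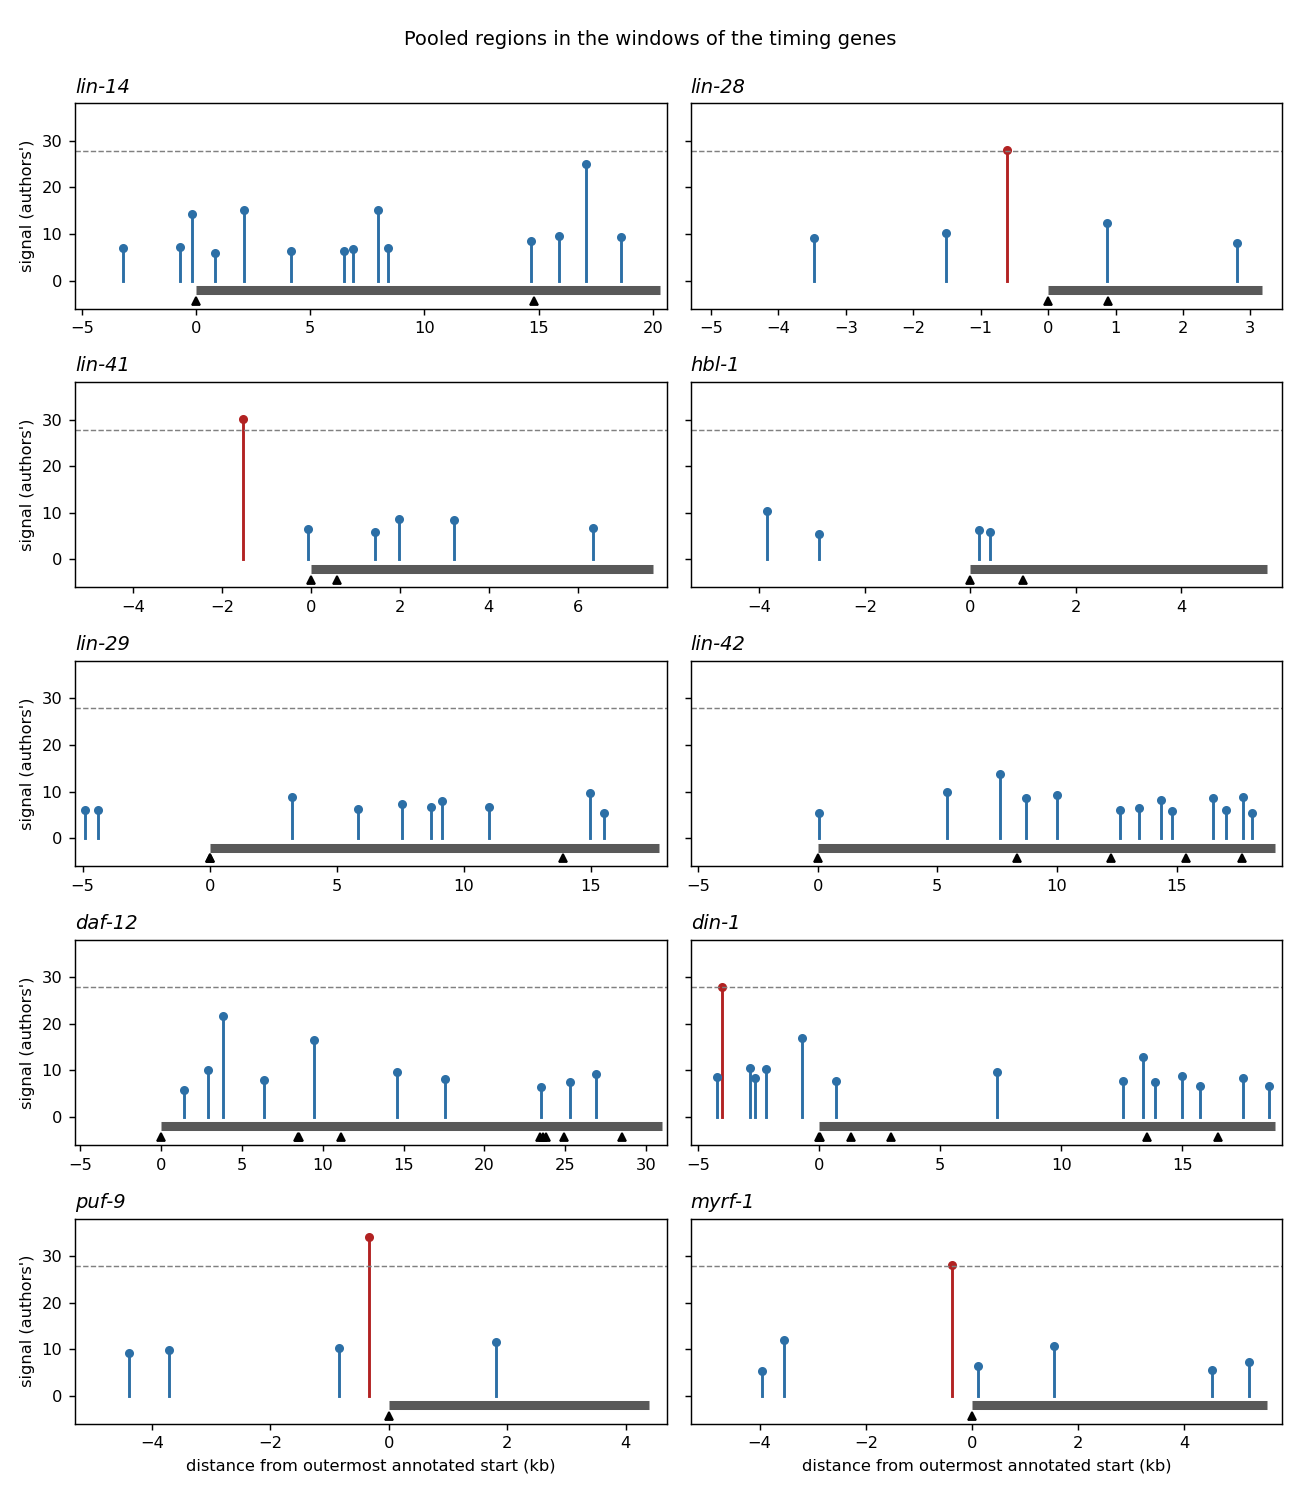
Pooled regions in the window of each of the 10 timing genes; the horizontal axis is distance along the gene from its outermost annotated start, in kb, and bar height is the authors' pooled signal. Red bars are optimal peaks, blue bars other pooled regions, the grey bar is the gene, triangles are annotated transcript starts and the dashed line is the lowest optimal signal, 27.9; the 5 red bars all stand upstream of the gene.

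Among the early-stage factors, lin-28 encodes an RNA-binding protein that holds back let-7 processing. Its optimal peak spanned 8411288 to 8411543 on chromosome I, with the summit 612 bp upstream of the outermost start and a pooled signal of 27.9 (rank 135). In replicate 1 the overlapping region had a signal of 23.8 and ranked 118 of 30000, and in replicate 2 it had a signal of 2.75 and ranked 12650 of 19385. The replicates were thus far apart in rank there, although their summits lay 29 bp apart. Of the 99 nuclear optimal peaks with a region in replicate 2, 3 ranked lower in that replicate. The strongest replicate 2 region at lin-28 was another one, 46 bp upstream of the start of the shorter transcript, at rank 1207; the replicate 1 region it overlapped ranked 15148, and the pooled region there had a signal of 12.3 and rank 3545. The nearest start of another gene to the optimal summit was that of F02E9.7, at 1006 bp.

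The nuclear factor gene lin-14, the target of lin-4 in the early larva, had 14 pooled regions and no optimal peak. Its strongest pooled region had its summit in a coding exon, 2259 bp downstream of the second annotated start and 17060 bp downstream of the outermost one. That region had a signal of 18.6 and rank 310 in replicate 1, and a signal of 8.22 and rank 390 in replicate 2, so it stood high in both lists. The summits of the replicates lay 52 bp apart. Nearer starts to the pooled summit than that of lin-14 belonged to the small nucleolar RNA genes T25C12.11, at 1873 bp, and T25C12.12, at 2206 bp. The region at the outermost start, 187 bp upstream, had a pooled signal of 14.3 and rank 1840, and there the replicates differed, with rank 625 in replicate 1 and 12011 in replicate 2. The strongest region of replicate 2 at lin-14 lay in an intron, with a signal of 10.9 at rank 113. Replicate 2 gave 20 regions at lin-14 and replicate 1 gave 10.

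The hunchback-related factor gene hbl-1 had 4 pooled regions, the fewest of the 10 genes. The strongest, with a pooled signal of 10.3 and rank 6746, lay 3858 bp upstream of the outermost start, inside the noncoding RNA gene F13D11.21. It ranked 8365 in replicate 1 and 8032 in replicate 2, with summits 117 bp apart. At the outermost start itself the pooled region ranked 22560, and replicate 2 had none within 500 bp.

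The TRIM-NHL protein gene lin-41, a let-7 target that restrains LIN-29, had its optimal peak from 9343892 to 9344147 on chromosome I, 1524 bp upstream of the outermost start. The pooled signal was 30.0 (rank 113). The overlapping region had a signal of 27.6 and rank 80 in replicate 1, and a signal of 5.64 and rank 2107 in replicate 2, with summits 57 bp apart. No other gene started closer, and the next, M04C9.2, started at 5556 bp. At the outermost start the pooled region was weak, with a signal of 6.47 at rank 21403, and again replicate 2 had none within 500 bp.

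The zinc finger factor gene lin-29, which acts at the larval-to-adult change, had the lowest strongest signal of the 10 genes in the pooled list. That region had a pooled signal of 9.66 and rank 8281, in an intron 1092 bp downstream of the third annotated start, and replicate 2 had no overlapping region. None of the 3 annotated starts had a region within 500 bp in any list. Replicate 2 gave 2 regions over the whole window against 9 in replicate 1, and the 1 pair that overlapped had summits 163 bp apart.

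The Period-related gene lin-42, whose expression oscillates with the molts, had 13 pooled regions. The strongest was intronic, 702 bp upstream of the second annotated start, with a pooled signal of 13.7 at rank 2281; it ranked 4230 in replicate 1 and had no counterpart in replicate 2. The strongest region of replicate 2 at lin-42 ranked 617 and lay elsewhere in the gene. The replicates therefore put their strongest signal at different places in this gene. Of the 5 annotated starts, 4 had a pooled region within 500 bp, of which the strongest ranked 10836.

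The steroid receptor gene daf-12 had the longest window and 9 annotated starts. Its strongest pooled region was intronic, 3848 bp downstream of the outermost start, with a signal of 21.6 at rank 321. The overlapping region had a signal of 19.5 and rank 257 in replicate 1, and a signal of 4.85 and rank 3501 in replicate 2, with summits 43 bp apart. A second region, 923 bp downstream of its nearest start and 9455 bp downstream of the outermost, had rank 1000. The outermost start had no region within 500 bp in any list, while 4 of the 9 starts had a pooled region there, all in the distal part of the gene. The strongest replicate 2 region at daf-12 ranked 907.

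The gene din-1 encodes a corepressor that binds DAF-12 when the hormone is absent. Its optimal peak, from 11637475 to 11637730 on chromosome II, lay 3994 bp upstream of the outermost start and was the farthest of the 5 from its gene. The overlapping region had a signal of 17.5 and rank 392 in replicate 1, and a signal of 13.6 and rank 61 in replicate 2, with summits 36 bp apart. Nearer starts to this summit belonged to the small nucleolar RNA gene ZK20.9 at 2378 bp, a pseudogene at 2758 bp and the noncoding RNA gene ZK20.8 at 3269 bp, so the peak cannot be tied to din-1 by position. A second pooled region, 726 bp upstream of the gene, had a signal of 16.9 and rank 871; it ranked 797 in replicate 1 and 4564 in replicate 2. Another, 141 bp upstream of the fifth start, had rank 3022 and lay inside the small nucleolar RNA gene F07A11.15. With 8 overlapping pairs of replicate regions, din-1 had the most of the 10 genes, from 15 regions in replicate 1 and 13 in replicate 2. A region can stand in more than 1 pair, as the replicate 2 region of rank 61 did here.

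The Pumilio-family gene puf-9, whose protein represses hbl-1 RNA, had the strongest peak of the 10. It spanned 5841133 to 5841388 on the X chromosome, with a pooled signal of 34.0 at rank 86 and its summit 331 bp upstream of the single annotated start. The overlapping region had a signal of 22.4 and rank 142 in replicate 1, and a signal of 9.84 and rank 178 in replicate 2, with summits 23 bp apart. The summit lay inside the noncoding RNA genes W06B11.9 and W06B11.7, whose starts were closer, at 76 and 89 bp. Position therefore cannot tie the peak to puf-9 alone. Among the 5 genes with an optimal peak, puf-9 was the gene at which peak rank agreed most closely between the replicates.

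The gene myrf-1 encodes a membrane-tethered transcription factor needed for molting. Its optimal peak, from 10502797 to 10503052 on chromosome II, had a pooled signal of 28.1 at rank 134, with the summit 384 bp upstream of the single annotated start. The order of the replicates was the reverse of that at lin-28, since the overlapping region ranked 47 in replicate 2, with a signal of 15.3, and 1928 in replicate 1, with a signal of 12.3. Replicate 1 had a stronger region 3551 bp upstream, at rank 1654. The summits lay 15 bp apart, the closest of the 5. The myrf-1 summit lies inside the noncoding RNA gene F59B10.7, whose start is 273 bp away.

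**Figure D2:**
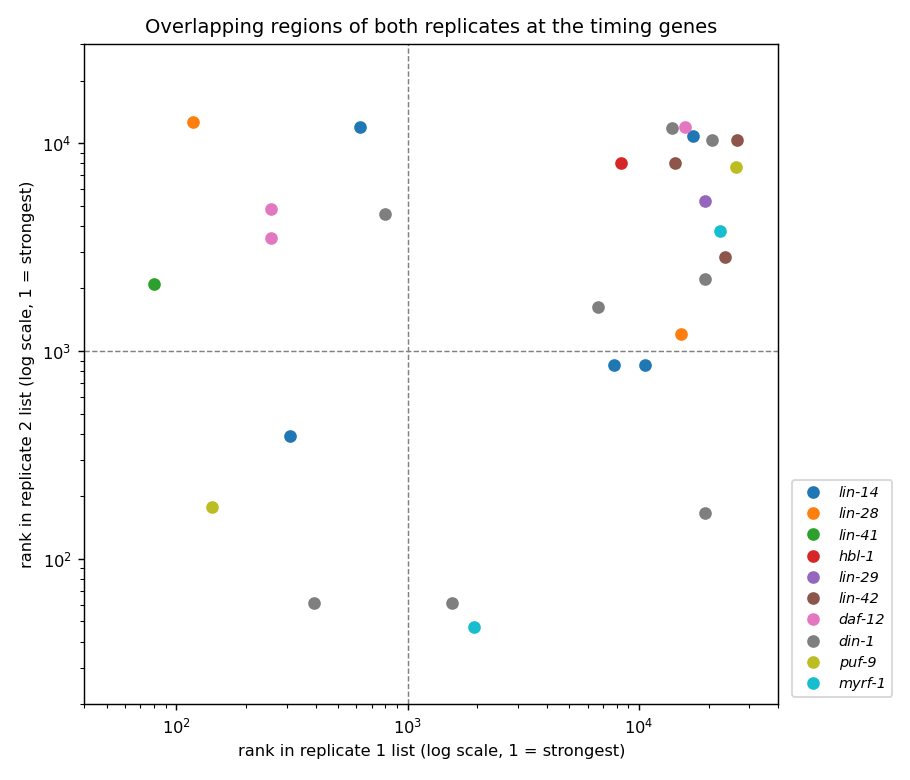
Each point is 1 of the 28 overlapping pairs of regions at the timing genes, coloured by gene, at its rank in the replicate 1 list (horizontal) and the replicate 2 list (vertical), both log axes on which rank 1 is the strongest; dashed lines mark rank 1000. In the lower left corner, within rank 1000 on both axes, stand 3 points, from din-1, puf-9 and lin-14, while the lin-28 pair at rank 118 and the lin-41 pair at rank 80 in replicate 1 rank 12650 and 2107 in replicate 2.

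The agreement of the replicates divided the genes. Overlapping regions that ranked within the first 1000 of each replicate were present at 3 of the 10 genes, din-1, puf-9 and lin-14. The background was 1.12% of all protein-coding genes and 1.35% of those with long windows; this count was added after the values had been seen. Over all 108 nuclear optimal peaks the median rank was 87.5 of 30000 in replicate 1. In replicate 2, 99 of them overlapped a region, with a median rank of 207 of 19385, and 9 overlapped none. A rank beyond 1000 was found for 29 of the 99 in replicate 2 and for 2 of the 108 in replicate 1, of which myrf-1 was 1. The lists differ in length, so ranks are not equal steps of strength between them. When each replicate was taken alone and its 137 strongest regions were kept, replicate 1 had such regions at lin-28 and lin-41 (1.12% of all protein-coding genes had one), and replicate 2 at din-1, myrf-1 and lin-14 (1.07%). No gene of the 10 was in both sets. The share of all protein-coding genes in both sets was not computed, so nothing is read from this.

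Any overlap of the replicates was found at all 10 genes, over 28 pairs of regions, against 28.6% of all protein-coding genes and 41.3% of those with long windows. Of the 80 replicate 1 regions at the timing genes, 26 overlapped a replicate 2 region (32.5%), against 4524 of the 30000 in the whole list (15.1%). Replicate 2 regions were also denser in these windows, at 4.04 per 10 kb against 1.95 over all protein-coding genes. Denser regions can overlap more often by position, so closer agreement of the replicates is not read from the 32.5%. The median distance between paired summits was 156 bp, against 134 bp over the whole lists. Regions at the timing genes were 256 bp wide in replicate 1 and 336 bp in replicate 2, so the overlap rule itself limited this distance. The largest was 294 bp, and these medians are no measure of summit agreement. With summits required to lie within 100 bp, 7 genes still had a pair, and those without were lin-29, hbl-1 and lin-42; the background was 14.3% of all protein-coding genes and 20.9% of those with long windows. Both replicates were called against 1 shared control that was not analysed here, and its part in these overlaps was not tested.

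**Figure D3:**
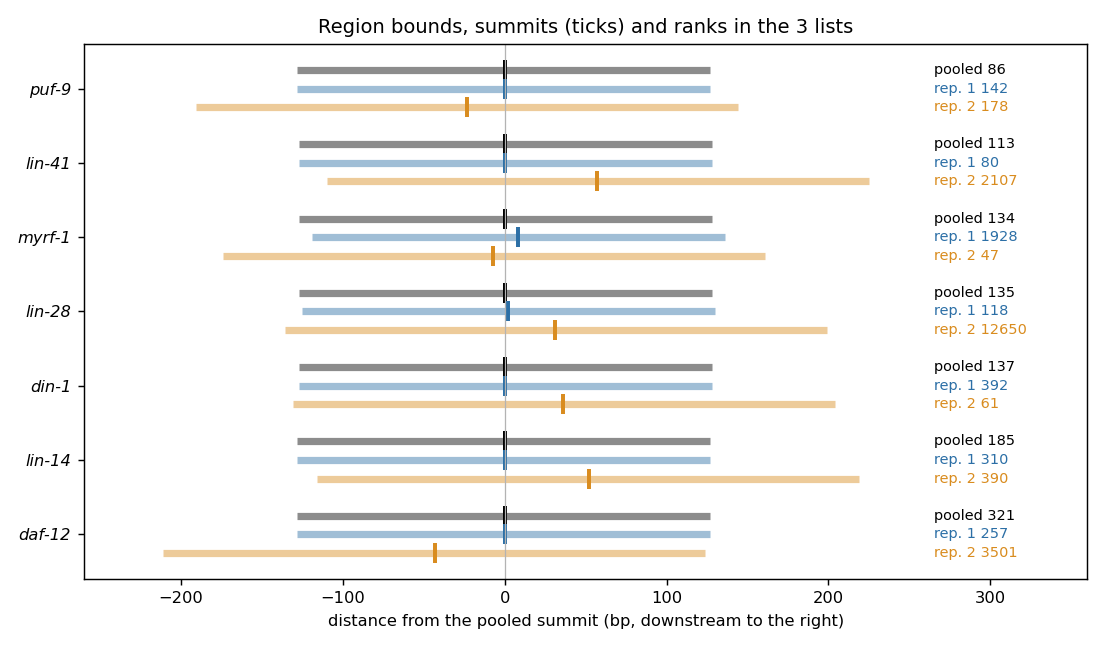
Bounds (bars) and summits (ticks) of the pooled, replicate 1 and replicate 2 regions at the strongest pooled region of the 7 timing genes where it ranks within the first 1000; the horizontal axis is distance from the pooled summit in bp, downstream to the right, and ranks stand at the right edge. The pooled summit lies at or within 8 bp of the replicate 1 summit at all 7, and between 7 and 57 bp from that of replicate 2.

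At the strongest pooled region of each of the 7 genes, the pooled summit lay 0 to 8 bp from that of replicate 1. It lay 7 to 57 bp from that of replicate 2, and only at myrf-1 was replicate 2 the closer. Over the nuclear optimal peaks the median was 3 bp to replicate 1 and 37 bp to replicate 2, so the same lean held beyond these genes.

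A region among the 1000 strongest of the pooled list lay in the window of 7 of the 10 genes, the 5 with an optimal peak and also daf-12 and lin-14. The background was 8.65% of all protein-coding genes and 11.9% of those with long windows. All 10 genes had at least 1 pooled region, as did 84.6% of all protein-coding genes, so that count is close to what most genes show. The strongest pooled signal per gene had a median of 9.33 over all protein-coding genes and of 10.7 over those with long windows. Among the latter, the strongest signal of puf-9 was above that of 99.3% of genes, lin-41 98.9%, din-1, lin-28 and myrf-1 98.5% each, lin-14 97.8%, daf-12 96.0% and lin-42 75.7%. The strongest signals of hbl-1 and lin-29 were above those of 45.5% and 38.6% of genes with long windows, and so below their median. Over all protein-coding genes the shares were 59.2% and 53.3%, above the median, so the side on which these genes fall depends on the genes they are set against.

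**Figure D4:**
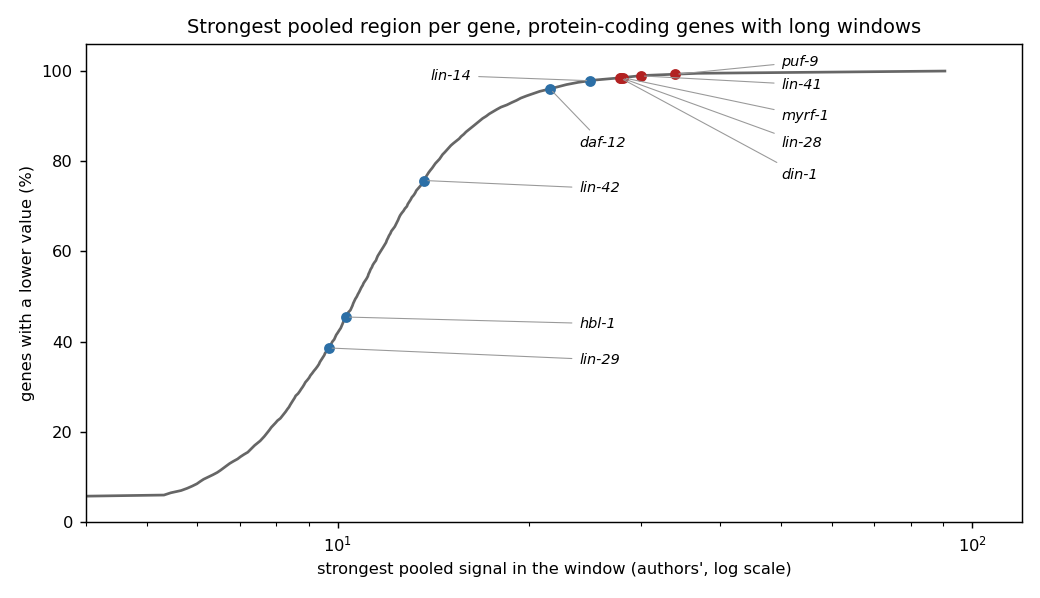
Share of the 5991 protein-coding genes with long windows whose strongest pooled signal is lower than the value on the horizontal axis (authors' signal, log axis), with the timing genes marked, red for those with an optimal peak and blue for the others. The 7 genes with a region among the 1000 strongest lie at 96.0% or more, lin-42 lies at 75.7%, and hbl-1 and lin-29 lie at 45.5% and 38.6%.

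The order differed within each replicate. In replicate 1, lin-41 (99.3%), lin-28 (98.9%) and puf-9 (98.5%) were highest and myrf-1 stood at 81.7%. In replicate 2, myrf-1 (99.7%), din-1 (99.5%) and lin-14 (98.9%) were highest, while lin-28 stood at 86.6% and lin-41 at 78.0%. In both replicates hbl-1 and lin-29 were at or below 54.8%.

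The shares of regions by place are set beside genes with shorter windows, in which the fixed 5 kb upstream takes up more. Nothing particular to these genes is read from the shares by place. Of the 89 pooled regions, 47 had their summit in an intron (52.8%, against 21.8% over all protein-coding genes and 36.8% over those with long windows), 25 upstream of the gene (28.1%, against 61.6% and 44.1%), 12 in a coding exon, 2 in a 5′ untranslated region and 3 in a 3′ untranslated region. The windows of the timing genes were longer than those of either comparison set by their medians (17699.5 bp, against 7026 and 10231 bp), which puts more of each window inside the gene, and the part of gene length in these shares was not tested. The background shares count a region once for each window that holds it, with 49898 counts from the pooled list of 30000. They are therefore not shares of distinct regions, here or for regions near a start. Within 500 bp of a start of the same gene lay 18 of the 89 pooled regions (20.2%), against 17.6% over all protein-coding genes and 16.1% over those with long windows. The share was 23.8% in replicate 1, against 16.9% over all protein-coding genes, and 13.5% in replicate 2, against 17.7%, so the replicates fell on opposite sides of the background. Of the 33 annotated starts, 16 had a pooled region within 500 bp (48.5%, against 33.4%), as did 19 in replicate 1 (57.6%, against 32.6%) and 9 in replicate 2 (27.3%, against 22.2%). Each start was counted on its own, although close starts can share a region. At daf-12, which gave 4 of the 16 and 6 of the 19, several starts shared the pooled region of rank 21781. They also shared the replicate 1 region of rank 16950. The strongest pooled region was within 500 bp of a start at 2 of the 10 genes, myrf-1 and puf-9, against 16.5% of all protein-coding genes and 16.9% of those with long windows. The count depended on the distance, with 0 genes within 250 bp (9.44% of all protein-coding genes) and 4 within 1000 bp (27.5%). With the strongest region of replicate 1 it was 1 gene, puf-9 (15.9%), and with that of replicate 2 it was 3, lin-28, myrf-1 and puf-9 (14.5%). No test of these counts was made. The distances are to annotated starts only, and trans-splicing, common in this worm, removes the original 5′ end of a transcript, so that transcription may begin farther upstream than annotated.

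Summed over the 10 windows, the density of regions was above the background, though not at each gene. There were 4.85 pooled regions per 10 kb of window, against 3.04 over all protein-coding genes and 3.19 over those with long windows. The density was 4.36 against 3.07 (3.18 with long windows) in replicate 1 and 4.04 against 1.95 (2.02) in replicate 2. Within the pooled list it ran from 2.78 at daf-12, under the background, to 6.63 at myrf-1. In replicate 1, daf-12 was also under it, at 2.50. In replicate 2 the genes under the background for long windows were lin-29, at 0.88, and hbl-1, at 1.88, and the highest was lin-14, at 7.90. The median signal of the 89 pooled regions was 8.38, against 7.70 over the list.

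The hexamer GAGAGA occurred within 50 bp of the summit in 12 of the 89 pooled regions (13.5%), against 15.7% of the nuclear optimal peaks and 6.34% of the nuclear pooled regions. It was searched on both strands, as were the other motifs. CGCGCA was found in 2 of the 89 (2.25%), against 23.1% and 1.87%, and CTGCGC in 3 (3.37%), against 15.7% and 1.40%. AAGTCA, the core recognised by tailless-family receptors, was found in 2 (2.25%), against 3.70% and 4.36%. At the 5 optimal summits GAGAGA was present at myrf-1 and puf-9 only, and none of the other motifs at any. CGCGCA and CTGCGC were taken from earlier results on these peaks, and a match or its lack describes the letters in the window and not a bound site.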

How the data were processed

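ChIP-seq of eGFP-tagged NHR-67 was represented by 2 biological replicates, per the labels. The authors deposited lists of regions on ce11 with a signal value and a −log10 q-value for each region; the −log10 q was not used to rank regions. The optimal list passed the authors' reproducibility threshold, and the other lists were called against 1 control shared by the replicates, according to text records the authors deposited. Neither aligner nor peak caller is given in the sources used here. Lists on ce10 were not used here.

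Regions were ranked by the authors' signal within each list. Genes and transcript starts came from Ensembl 115 on WBcel235, and sequences from the RefSeq genome of that assembly; 0 regions ran past a chromosome end. A region belonged to a gene when its summit lay from 5 kb upstream to the gene's end. Replicate regions were paired when they shared at least 1 bp, so a region could stand in more than 1 pair. Motifs were counted within 50 bp of summits. Python 3.11.15, pandas 2.3.3, numpy 2.4.6 and matplotlib 3.10.9 were used, and window counting was tested on simulated data. Depth is unknown, so no interval was computed, and no test was run.

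The timing genes, gene lists and motifs were chosen with earlier results of these data known. All 10 timing genes were named; of 4 further lists, each gene with an optimal peak or a region among the 1000 strongest pooled regions was named and the rest counted. Pairs ranking within the first 1000 of each replicate, and the shares of regions by place and by start, were added after values were seen. Alternatives were other window lengths, start distances, overlap rules, list sizes and each replicate alone.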

Additional observations from a re-analysis of the deposited data

How the results depend on the processing

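Of 36 alternative values, 10 moved, which means a count that changed by more than 1.5 times or a density that changed by more than the SD between replicates; the other 26 did not, although some counts among them fell or rose. With only the stronger 69 peaks of the optimal list, the number of timing genes with an optimal peak, and of optimal peaks at them, fell to 0. With the 137 strongest regions of a single replicate in place of the optimal list, the number of genes was 2 to 3. With a window from 2 kb upstream, 4 genes kept an optimal peak, since din-1 lost its own, and genes with overlapping replicate regions fell from 10 to 7 with summits within 100 bp. The number of genes whose strongest region was at a start was 0 within 250 bp and 4 within 1000 bp, where lin-28 and lin-42 joined, and 1 to 3 with a single replicate. Density was 4.58 regions per 10 kb with windows from 10 kb upstream and 4.04 to 4.36 with a single replicate. No paired analysis was possible because there is 1 group. Depth is unknown, and 1 strain and 2 replicates limit what the ranks can show.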

Other observations

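Genes around the timing pathway were counted in 4 lists: timing microRNAs, other timing regulators, molting genes and the PUF family to which puf-9 belongs, most of whose members are not timing genes. Of 50 genes, 49 were matched, of which 42 are protein-coding. A region among the 1000 strongest pooled regions lay in the window of 10 of the 49, and an optimal peak in that of 1. Among the 42 protein-coding genes it was 7, beside 8.65% of all protein-coding genes. Among 5 timing microRNA genes, 3 had such a region and 0 an optimal peak. No share over microRNA genes was computed, so this count has no background beside it. At let-7, which turns down lin-41 and hbl-1, the region had a signal of 23.6 and rank 221, 1828 bp upstream, with rank 357 in replicate 1 and no counterpart in replicate 2; the start of C05G5.2 was nearer, at 154 bp. The let-7 family genes mir-48 and mir-241 shared 1 region, with a signal of 20.1 at rank 418, which lay 477 bp from mir-241 and ranked 337 in replicate 1 and 12626 in replicate 2; the start of F56A12.8 lay 149 bp away.

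Of 22 other timing regulators found, 6 had such a region. For this list and for the molting and PUF lists, the background is 8.65% of all protein-coding genes. It is not an exact match, since lep-5 and the pseudogene puf-4 are not protein-coding. These counts were not tested. At nhl-2, a cofactor of microRNA silencing, the region had a signal of 25.3 and rank 178, and ranked 1638 in replicate 1 and 72 in replicate 2; the start of F26F4.14 lay 7 bp away. The others were kin-20 (pooled rank 767), apl-1 (749), sea-2 (928), daf-36 (409) and nhr-8 (331). In replicate 1 they ranked 672, 293, 650, 10969 and 326 in the same order, so daf-36 ranked low there. Only sea-2 among them had a counterpart in replicate 2, at rank 13813. The start of F46F2.9 lay 143 bp from the kin-20 region, and that of emc-6 150 bp from the nhr-8 region. Of 12 molting genes, 0 had such a region although all 12 had a pooled region. In the PUF family, 1 of 10 had one, puf-5, with an optimal peak in its 3′ untranslated region at rank 83; it ranked 61 in replicate 1 and 12687 in replicate 2, and the start of F54C9.9 lay 490 bp away.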
